A study of Mus musculus with 3 samples.

Results

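Chromatin-bound RNA of 8 genes that decide between survival and death of a macrophage was examined in 3 libraries. The genes were Casp8, Ripk1, Ripk2, Ripk3, Mlkl, Cflar, Birc2 and Birc3, taken by symbol from the gene and transcript tables. They were 8 of 55536 annotated genes, and all 8 were among the 11755 protein-coding genes detected, with 10 or more expected counts on average. The cells were primary macrophages grown from mouse bone marrow of the C57BL/6J strain, with no genetic change named in the labels. They had received Lipid A, the membrane anchor of bacterial lipopolysaccharide and a ligand of Toll-like receptor TLR4, for 12 h at 100 ng/ml. It was then washed out for 12 h, and the cells were given 100 ng/ml again for 15 min before the chromatin fraction was isolated and its RNA sequenced after removal of ribosomal RNA. The series held this 1 group of 3 biological replicates, and no untreated or singly treated macrophages were analysed here. The labels gave 1 donor identifier for all 3 libraries. SDs here measure the spread between these libraries, part of which may be technical, and p-values rest on the same 3 libraries.

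Signals from death receptors and Toll-like receptors meet on the kinase RIPK1. While the ubiquitin ligases cIAP1 and cIAP2, the products of Birc2 and Birc3, decorate RIPK1 with ubiquitin chains, it serves as a scaffold for survival signalling. When that control is lost, RIPK1 joins caspase-8, the product of Casp8, whose full activation kills the cell by apoptosis. Cflar encodes FLIP, a relative of caspase-8 that pairs with it and limits its activity. The caspase-8 and FLIP pair also cuts RIPK1 and RIPK3, and where it fails, RIPK3 phosphorylates MLKL, the pseudokinase that breaches the plasma membrane in necroptosis. RIPK2 shares the kinase family but serves the cytosolic receptors NOD1 and NOD2, which sense bacterial cell walls.

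The libraries held 14609979, 17423948 and 24162551 expected counts in replicates 1, 2 and 3, from 1000, 250 and 500 ng of RNA. All 8 macrophage markers examined were detected, with summed levels of 869 to 978 TPM, a measure that divides reads by transcript length and scales each library to one fixed total. In the gene table, the highest of 29 markers of other cell types was Zbtb46, a factor of dendritic cells, at 1.58 ± 0.16 TPM (SD, n = 3). Summed levels of the neutrophil markers were 0.27 to 0.65 TPM, and Elane, Ncr1, Cd3e and Mcpt4 were at 0 in each library of the gene table. The stromal markers Col1a1, Col1a2 and Col3a1 and the mast-cell marker Kit also passed detection, at 17.7 to 28.7 expected counts on average. Summed levels of the stromal markers were 0.01, 2.03 and 1.01 TPM in replicates 1, 2 and 3. In the read-based table the T-cell gene Cd3d was listed at 15.2 ± 2.4 TPM, against 0.0167 ± 0.0289 in the gene table. That table also listed the neutrophil marker Cxcr2 at 4.61 ± 0.63 TPM and the dendritic-cell marker Siglech at 2.49 ± 0.30 TPM in the read-based values, against 0.01 and 0.177 TPM in the gene table. Replicate 1 had already stood apart from the others in earlier results of these data. In bulk RNA, fewer cells that carry a transcript and less of it per cell cannot be told apart.

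Promoter sequence was taken from RefSeq (GRCm38.p6, the mm10 build) for 7 of the 8 genes, in 9 windows of 250 bases before and 50 bases after a start site. Ripk2 had no entry in that table. Of the 9 windows, 3 are printed, chosen after the values were seen. Cflar and Birc3 had the highest levels of the 8 genes and, in TPM of the gene table, the largest excess in replicate 1. In the read-based table the excess of Birc3 was smaller than those of Ripk2, Cflar and Mlkl. The second start of Ripk1 held the other match to an interferon motif. Capitals mark matches to the motifs searched on both strands.

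Cflar, plus strand of chromosome 1, chr1:58711241-58711540: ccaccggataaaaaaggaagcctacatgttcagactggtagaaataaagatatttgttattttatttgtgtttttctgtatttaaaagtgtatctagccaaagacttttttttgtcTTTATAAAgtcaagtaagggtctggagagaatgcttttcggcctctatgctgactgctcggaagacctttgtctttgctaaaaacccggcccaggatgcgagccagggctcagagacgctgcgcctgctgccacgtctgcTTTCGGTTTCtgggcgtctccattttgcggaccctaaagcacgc

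Birc3, minus strand of chromosome 9, chr9:7873121-7873420: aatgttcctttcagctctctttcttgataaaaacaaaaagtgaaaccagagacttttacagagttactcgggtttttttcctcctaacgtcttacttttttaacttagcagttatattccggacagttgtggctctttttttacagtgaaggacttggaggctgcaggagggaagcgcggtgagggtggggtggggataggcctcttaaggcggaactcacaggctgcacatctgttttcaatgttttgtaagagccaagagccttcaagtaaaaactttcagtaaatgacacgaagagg

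Ripk1, second start, plus strand of chromosome 13, chr13:34002624-34002923: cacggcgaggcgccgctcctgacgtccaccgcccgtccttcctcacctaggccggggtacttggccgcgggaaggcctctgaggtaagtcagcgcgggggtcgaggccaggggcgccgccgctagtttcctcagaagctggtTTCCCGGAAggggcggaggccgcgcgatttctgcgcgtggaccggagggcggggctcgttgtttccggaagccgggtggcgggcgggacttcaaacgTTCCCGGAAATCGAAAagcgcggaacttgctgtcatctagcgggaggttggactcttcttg

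In the Cflar window the capitals closer to the end are a match to the core of the interferon-stimulated response element (GAAA, any pair of bases, GAAA) on the reverse strand, at 7 to 16 bases after the start. The other capitals there are 2 overlapping matches to the TATA box (TATAAA), 1 on each strand, at 134 to 127 bases before the start. The Ripk1 window held the same interferon core from 5 bases before to 5 bases after the start, overlapping 1 of 2 matches to the STAT-type GAS motif (TTCNNNGAA). The Birc3 window, shown for contrast, held none of the 4 motifs searched, which also included the NF-kB consensus. Neither did the windows of Casp8, Ripk3, Mlkl, Birc2 or the first start of Ripk1. Of 32851 promoter windows of this length, 3.44% held the interferon core, 8.30% the GAS motif, 13.6% the TATA box and 4.51% the NF-kB consensus. These are matches of letters, and no factor binding was measured. The RefSeq start of Casp8 lay 7128 bp inside the gene as GENCODE annotates it, whereas that of Cflar lay 17 bp before the annotated start and that of Birc3 16 bp after it.

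The 8 genes spanned a wide range of levels, with Cflar and Birc3 at the top and the kinase genes Ripk2 and Ripk3 at the bottom. Birc2, which like Birc3 encodes a cIAP, lay below Mlkl, Ripk1 and Casp8. The mean level was 242 ± 56 TPM for Cflar, 128 ± 29 for Birc3, 42.4 ± 6.1 for Mlkl and 41.5 ± 4.1 for Ripk1 (SD, n = 3). Casp8 followed at 38.3 ± 3.3 TPM, Birc2 at 26.9 ± 1.5, Ripk2 at 6.66 ± 1.93 and Ripk3 at 6.59 ± 0.55. Cflar stood above 98.7% of the detected protein-coding genes and Birc3 above 96.6%, while Ripk2 stood above 40.6% and Ripk3 above 40.5%. The ranges over the 3 libraries did not overlap between Cflar and Birc3, between Birc3 and Mlkl, between Casp8 and Birc2 or between Birc2 and Ripk2. They overlapped between Mlkl and Ripk1, between Ripk1 and Casp8, and between Ripk2 and Ripk3, so the order of those neighbours rests on values within their spread. Within libraries, Mlkl was above Ripk1 in 1 of 3, Ripk2 above Ripk3 in 2 of 3 and Ripk1 above Casp8 in 3 of 3, the last by 0.11 ± 0.09 in log2(TPM + 1). In the read-based table the ranges of Cflar and Birc3 overlapped too.

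**Figure D1:**
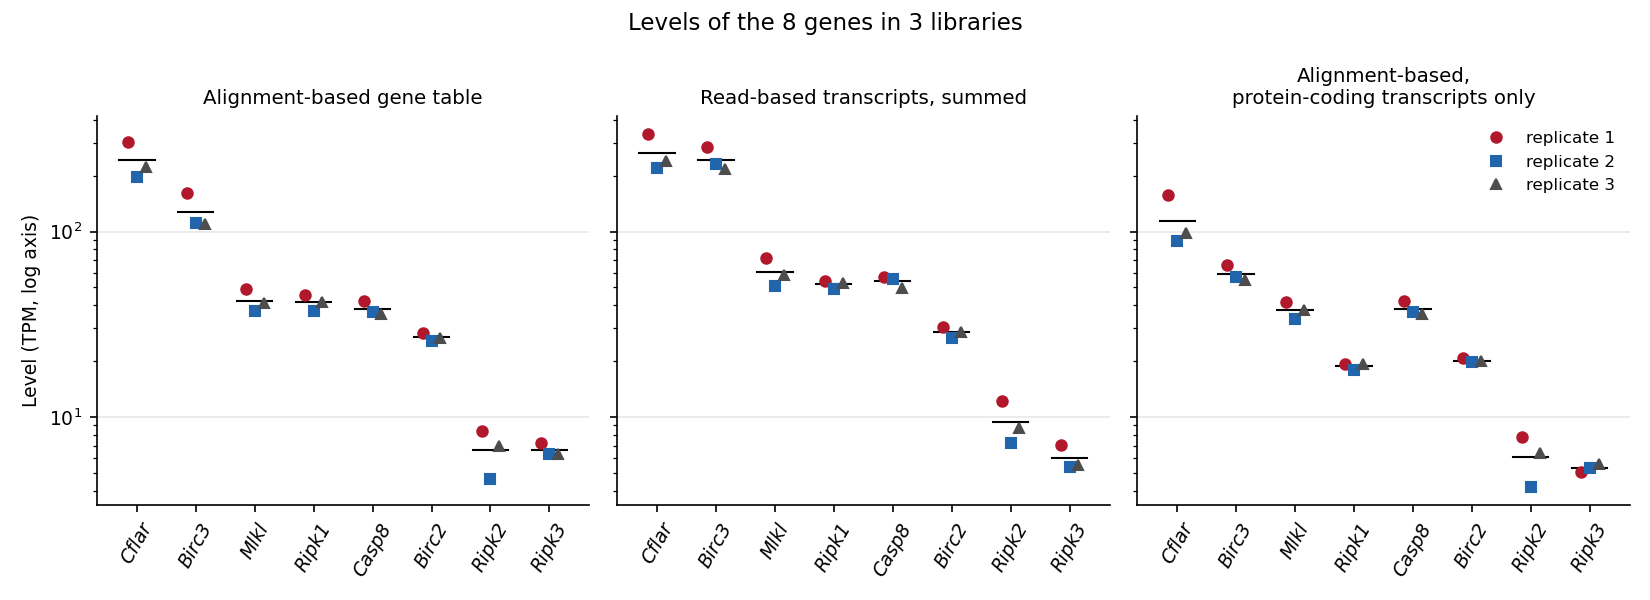
Level of each of the 8 genes in TPM (log axis) in 3 libraries, from the alignment-based gene table, the read-based transcript table summed per gene, and the protein-coding transcripts of the alignment-based table. Points are libraries and bars are means; Cflar and Birc3 led in each panel, Birc3 had a mean of 128 TPM in the alignment-based and 244 TPM in the read-based table, and Ripk1 lay below Birc2 in the coding transcripts plotted.

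Casp8 (ENSMUSG00000026029, mm10, chr1:58795374-58847503, plus strand), the initiator caspase of the death receptor pathway, was measured at 42.1, 36.6 and 36.1 TPM in replicates 1, 2 and 3. Its values lay within a narrow band, with replicate 1 at the top. All 4 annotated transcripts of Casp8 were of the protein-coding type, unlike those of the other 7 genes. Casp8-202 and Casp8-201, both of 480 codons, held 50.9 ± 12.0% and 42.1 ± 8.9% of its TPM. In the read-based table another form, Casp8-204 of 500 codons, held 30.2 ± 3.6%, against 0.42 ± 0.73% in the alignment-based table, so the split between the forms depended on the quantification.

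Cflar (ENSMUSG00000026031, chr1:58711508-58758884, plus strand) lies on the same chromosome, 36489 bp upstream of Casp8, with 1 noncoding gene between them. Its level was 305, 198 and 223 TPM in replicates 1, 2 and 3, on 11812, 9378 and 13466 expected counts. In the gene table each library placed Cflar above each of the other 7 genes, and replicate 1 was the highest. In the read-based table Cflar lay above Birc3 in only 2 of 3 libraries. Replicate 2 there had 219 TPM for Cflar and 230 TPM for Birc3. Cflar-205, which encodes the long form of 481 codons with the caspase-like domain, was at 88.1, 57.0 and 65.6 TPM. Cflar-204, a shorter form of 215 codons whose last exon ends 21.7 kb into the gene, was at 67.5, 31.5 and 31.8 TPM. The long form was thus 1.30, 1.81 and 2.06 times the short form in the 3 libraries, and the ratio was lowest in replicate 1. In the read-based table the same ratio was 1.20, 1.53 and 1.67, with replicate 1 again the lowest.

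Ripk1 (ENSMUSG00000021408, chr13:34002363-34037147, plus strand), the kinase on which survival and death signals meet, was at 45.5, 37.4 and 41.7 TPM. Ripk3 (ENSMUSG00000022221, chr14:55784995-55788865, minus strand), its necroptotic partner, was at 7.23, 6.27 and 6.27 TPM on 94, 129 and 173 expected counts. Ripk2 (ENSMUSG00000041135, chr4:16122733-16163647, minus strand), the NOD pathway kinase, was at 8.42, 4.60 and 6.95 TPM on 262, 177 and 339 expected counts. Each library of Ripk1 lay above each library of the other 2 kinases, and Ripk2 was the most scattered of the 3. Ripk3 had few reads, and the shares of its isoforms were not separable: Ripk3-201 of 486 codons held 43.2 ± 26.1% of its TPM and Ripk3-202 of 422 codons held 26.5 ± 16.2%. Ripk2 had 2 annotated transcripts, and the full-length coding form of 539 codons held 91.3 ± 0.9% of its TPM. In the read-based table that share was 54.2 ± 5.2%, and the rest lay in a transcript annotated as a target of nonsense-mediated decay.

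Mlkl (ENSMUSG00000012519, chr8:111311797-111338177, minus strand), the executioner of necroptosis, was at 49.0, 37.2 and 41.0 TPM on 821, 738 and 1086 expected counts. Its libraries overlapped those of Ripk1 and lay above those of Ripk3. The form of 464 codons, Mlkl-202, held 61.5 ± 3.9% of its TPM and the form of 472 codons, Mlkl-201, held 6.92 ± 1.66%. That order was not kept in the read-based table, where Mlkl-202 held 26.1 ± 4.6% and Mlkl-201 held 29.4 ± 5.3%.

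Birc3 (ENSMUSG00000032000, chr9:7848699-7873186, minus strand), which encodes cIAP2 and is a known target of NF-kB, was at 162, 111 and 110 TPM on 2303, 2353 and 2902 expected counts. Replicate 1 was the highest and replicates 2 and 3 were close together. Birc2 (ENSMUSG00000057367, chr9:7818227-7837064, minus strand), which encodes cIAP1, was at 28.5, 25.5 and 26.7 TPM on 881, 1023 and 1335 expected counts. It varied less between libraries than any other of the 8 genes in TPM, with an SD of 5.47% of its mean, against 28.9% for Ripk2 and 23.1% for Cflar. The cIAP genes are neighbours, 11634 bp apart on one strand with no annotated gene between them, and their longest shared stretch was 77.3% identical over 1357 nt. No annotated gene matched any of the 8 at 95% identity or more over at least 80% of its longest coding transcript, although Cflar shared 598 nt at 100% with the pseudogene Gm9845.

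Within each library, the levels of 5 pairs of genes were set against each other as differences in log2(TPM + 1), a scale that understates differences of low genes. Birc3 lay above Birc2 by 2.46, 2.08 and 2.00 in replicates 1, 2 and 3, a mean difference of 2.18 ± 0.25 (SD, n = 3). Cflar lay above Casp8 by 2.83, 2.40 and 2.59, a mean of 2.61 ± 0.21. In TPM these were ratios of 4.72 ± 0.84 for Birc3 over Birc2 and 6.28 ± 0.92 for Cflar over Casp8. Among the necroptosis genes, Ripk1 lay above Ripk3 by 2.48 ± 0.08, and Ripk3 differed from Mlkl by -2.51 ± 0.11. The difference of Ripk2 from Ripk1 was -2.50 ± 0.24. The sign was shared by 3 of 3 libraries for each of the 5 pairs, and each difference exceeded the spread between libraries. With 3 libraries an exact 2-sided sign-flip permutation test cannot give a p below 0.25, which was its value for each pair. The size, though not the sign, depended on which transcripts were summed. From protein-coding transcripts alone, an alternative chosen after seeing the data, Birc3 lay above Birc2 by 1.51 ± 0.10 and Cflar above Casp8 by 1.51 ± 0.32.

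Forms outside the protein-coding type held about as much of the TPM of Cflar, Birc3 and Ripk1 as their coding forms. Transcripts of other than the protein-coding type held 54.5% of the TPM of Ripk1, 53.3% of that of Cflar and 52.9% of that of Birc3. The share was 25.2% for Birc2, 19.1% for Ripk3, 10.6% for Mlkl and 8.73% for Ripk2. It was 0% by annotation for Casp8, whose annotated transcripts are all of the coding type. The median over 11733 detected protein-coding genes with TPM in each library was 41.0%, so the 3 highest shares lay at percentiles 62.8 to 64.5 of all genes and were not unusual in this chromatin RNA. With TPM for protein-coding transcripts only, the order of the genes was Cflar at 115 ± 37, Birc3 at 59.1 ± 5.8, Casp8 at 38.3 ± 3.3, Mlkl at 37.7 ± 3.9, Birc2 at 20.1 ± 0.5 and Ripk1 at 18.8 ± 0.8. Ripk2 and Ripk3 again came last, at 6.09 ± 1.81 and 5.30 ± 0.26 TPM. Ripk1, above Casp8 and Birc2 in each library when all transcripts were summed, lay below both in each library here. The read-based table did not share that change for Birc2. Its coding transcripts were at 22.8, 21.5 and 22.8 TPM for Ripk1 and 16.8, 16.9 and 16.0 TPM for Birc2. Ripk1 already lay below Casp8 there in 2 of 3 libraries with all transcripts summed.

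**Figure D2:**
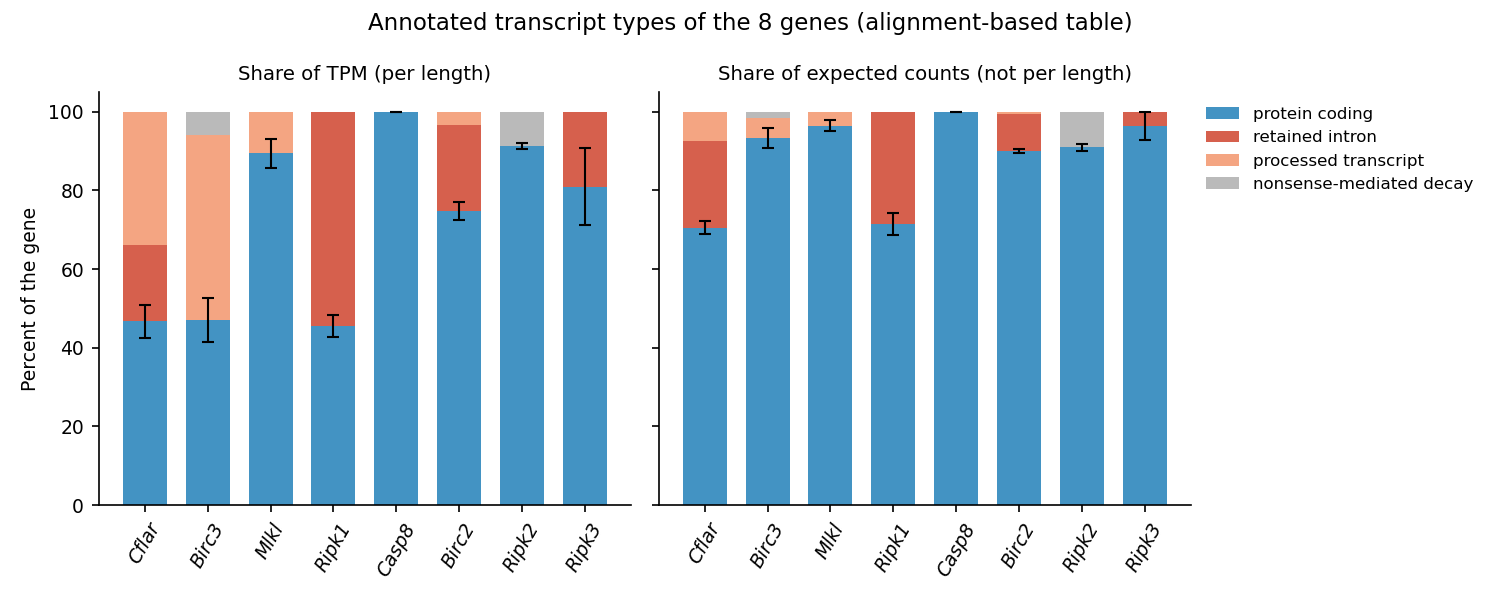
Percent of each gene in the annotated transcript types, as a share of TPM (left) and of expected counts (right), means of 3 libraries in the alignment-based table with error bars of 1 SD on the protein-coding share. Birc3 had 47.1% of its TPM but 93.3% of its counts in protein-coding transcripts. Casp8 had 100% in both by annotation, as it has no annotated transcript of another type.

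For Birc3 the noncoding share came from a pair of short transcripts that start in its first exon and end within its long first intron. Birc3-205 is 355 nt long with its last exon 4.26 to 4.54 kb into the gene, and Birc3-206 is 360 nt long with its last exon 6.67 to 6.99 kb into the gene. The first exon with coding bases in Birc3-201 begins 11.8 kb into the gene, so neither short form overlaps coding sequence. Birc3-205 was at 37.7, 18.6 and 19.9 TPM and Birc3-206 at 44.2, 32.7 and 28.9 TPM in replicates 1, 2 and 3. Together they held 47.0 ± 3.3% of the TPM of Birc3 but 5.04 ± 1.61% of its expected counts, since TPM divides by a length that is small for both. In the read-based table they held 62.5 ± 1.1% of its TPM and 14.3 ± 0.4% of its counts. The full-length form of 602 codons, Birc3-201, held 25.6 ± 1.9% of TPM and 49.0% of counts, and Birc3-202 of 376 codons held 21.1 ± 3.9% and 44.2%. The last exon of Birc3-202, of 1624 nt, runs past a 49 nt exon of Birc3-201. That of Cflar-204, of 975 nt, runs past a 74 nt exon of Cflar-205. Sums of coding forms thus still hold bases that are intronic in other forms.

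**Figure D3:**
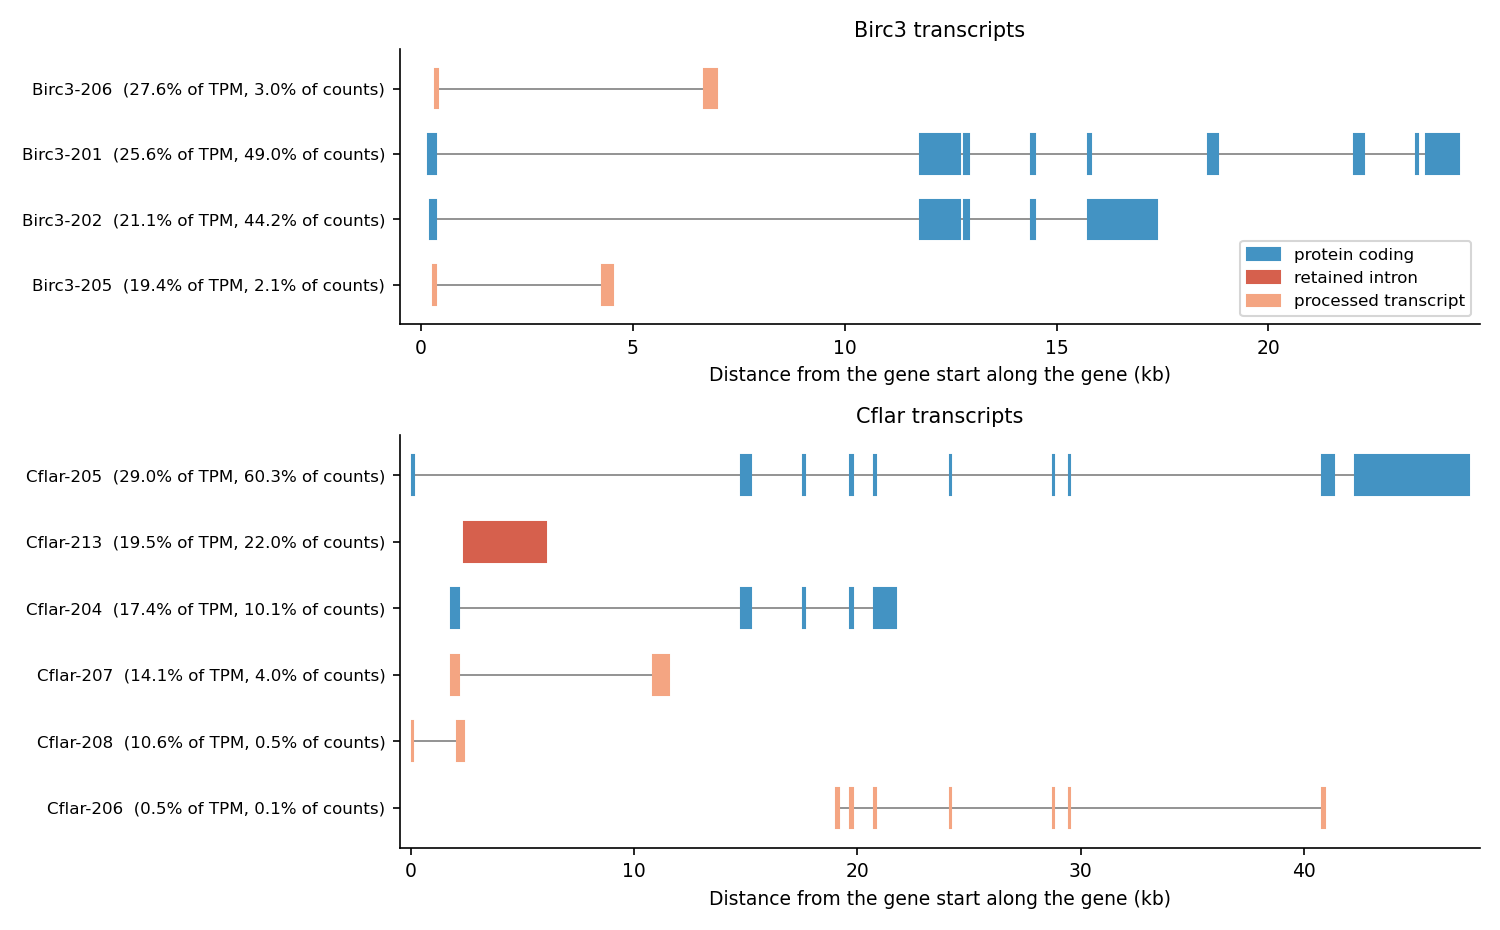
Exons (boxes) of the named transcripts of Birc3 and Cflar by distance from the gene start in kb, ordered by mean TPM and coloured by annotated type, with each transcript's share of the gene's TPM and counts. The second exons of Birc3-205 and Birc3-206, and all of Cflar-213, lie before the first coding exon, which begins at 11.8 kb in Birc3 and 14.8 kb in Cflar.

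Cflar showed a like layout. Its retained-intron transcript Cflar-213 is a single block of 3677 nt, from 2.38 to 6.05 kb into the gene, and lies wholly outside the exons of its coding transcripts. Cflar-213 was at 56.9, 39.5 and 44.2 TPM, which was 19.5 ± 0.7% of TPM and 22.0 ± 1.0% of the counts of Cflar. Because that block is long, its share was similar on both scales, unlike the short forms of Birc3. Cflar-207 and Cflar-208, whose later exons also lie before the first coding exon at 14.8 kb, held 14.1 ± 2.6% and 10.6 ± 0.6% of TPM but 3.97% and 0.52% of counts. In Ripk1, the retained-intron transcripts Ripk1-202 and Ripk1-205 held 32.9 ± 2.2% and 21.7 ± 2.9% of TPM, and Ripk1-202 had 61.2% of its bases outside the coding transcripts. In Birc2, the retained-intron transcript Birc2-203 held 21.8 ± 3.1% of TPM and 9.33 ± 1.09% of counts, and the coding forms Birc2-204 and Birc2-202, both of 612 codons, held 49.6 ± 5.0% and 25.2 ± 7.2% of TPM. Transcripts other than coding with at least 50% of their bases outside coding transcripts thus held 26.5 ± 1.5% of the counts of Cflar and 25.5 ± 2.5% of those of Ripk1. For Casp8, Ripk2, Ripk3 and Mlkl no annotated transcript met that description.

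Each of the 8 genes was highest in replicate 1 in TPM, against 36.3% of the 11755 detected protein-coding genes. The count was also 8 of 8 in the read-based table, where the background was 36.9%. On counts scaled by edgeR's TMM factors it was 7 of 8, against a background of 32.3%. The exception was Ripk3, whose replicate 1 was the lowest of the 3 there, with a deviation of -0.18 on the log2 scale. It was also the lowest in protein-coding transcripts alone, with a deviation of -0.086. Only 5 of 8 genes were highest in replicate 1 in the protein-coding transcripts of the read-based table, where Ripk1, Ripk3 and Birc2 were not. Replicate 1 minus the mean of the other 2 was 0.54 for Birc3, 0.53 for Cflar and 0.50 for Ripk2 in log2(TPM + 1), at percentiles 95.3, 95.2 and 94.3 of the detected protein-coding genes. It was 0.32 for Mlkl, 0.21 for Casp8, 0.20 for Ripk1, 0.18 for Ripk3 and 0.12 for Birc2, at percentiles 67.9 to 86.8. The median over the 8 genes was 0.26, beside -0.000107 over all detected protein-coding genes. A list of 8 interferon-stimulated genes had been picked as a reference for replicate 1, with earlier results of these data known. Its genes were highest in replicate 1 for 8 of 8, with a median of 0.64. Because of that choice, these values are not separate evidence on replicate 1. The part of that difference in the 8 death switch genes was not tested.

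**Figure D4:**
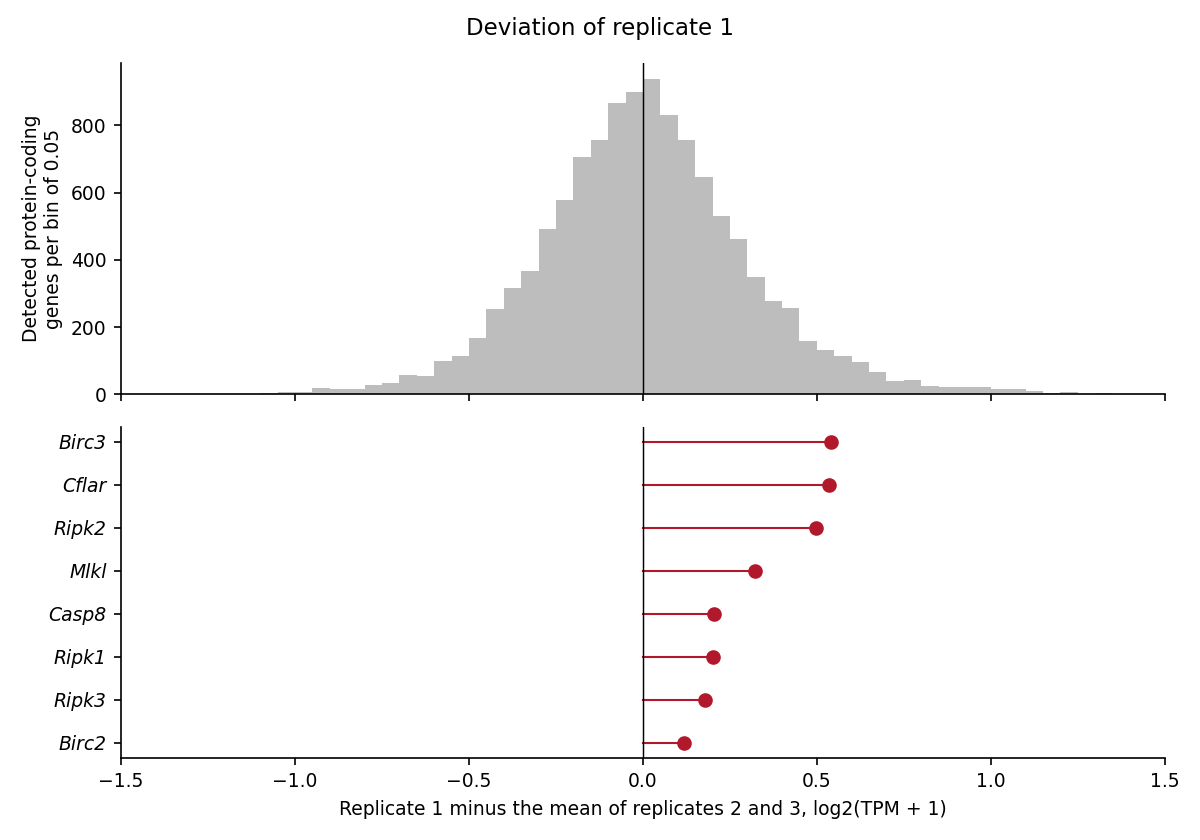
Replicate 1 minus the mean of replicates 2 and 3 in log2(TPM + 1), as the number of detected protein-coding genes per bin (top, 23 of 11755 genes fall outside the axis) and for each of the 8 genes (bottom). All 8 lie above 0 on this scale, from 0.12 for Birc2 to 0.54 for Birc3.

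The excess of Cflar in replicate 1 was larger in its protein-coding transcripts, at 0.75 in place of 0.53 in the alignment-based table and 0.74 in place of 0.55 in the read-based table. Its short coding form Cflar-204 deviated by 1.07 and 0.90 in the 2 tables, against 0.52 and 0.50 for the long form Cflar-205. For Birc3 the tables differed. In protein-coding transcripts its deviation was 0.23 in place of 0.54 in the alignment-based table, but 0.36 beside 0.35 in the read-based table. On scaled counts the deviation of Birc3 was 0.27 with TMM and 0.28 with DESeq2 size factors, below those of Cflar, Ripk2 and Mlkl on both scales. The noncoding Birc3-205 deviated by 0.93 in the alignment-based table and by 0.18 in the read-based table, where it was at 90.9, 81.2 and 78.5 TPM. Ripk2, also among the genes with a large deviation, differed as much between the other libraries, by -0.51 between replicates 2 and 3. Its replicate 1 and replicate 3 values of 8.42 and 6.95 TPM both lay above the 4.60 TPM of replicate 2.

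Beyond counting error, Birc2, Ripk1 and Casp8 varied least over the 3 libraries and Ripk2 most, an order that changed when single libraries were left out. The biological coefficient of variation, estimated with edgeR from counts, was 0.116 for Birc2, 0.117 for Ripk1 and 0.119 for Casp8. It was 0.133 for Birc3, 0.139 for Mlkl, 0.146 for Ripk3, 0.169 for Cflar and 0.197 for Ripk2, beside a median of 0.157 over 15873 detected genes. Birc2 was at percentile 0.81, Ripk1 at 3.41 and Casp8 at 8.25 of all detected genes, while Ripk2 was at 75.0. Below that median were 6 of the 8 genes, a count that became 3 of 8 among genes with a mean count of at least 100, 7 of 8 with DESeq2 dispersions and 8 of 8 with any count. Without replicate 1 the lowest values were those of Cflar at 0.0944 and Birc3 at 0.0953, and Ripk2 was at 0.148. Without replicate 2, Ripk3 at 0.172 and Cflar at 0.158 lay above Ripk2 at 0.145. The posterior SD was small beside the counts, at most 13.1 reads for Cflar and at most 5.04 reads for Ripk1. It does not cover differences between the quantifications. Birc3 averaged 128 TPM in the gene table and 244 TPM in the read-based table, and Cflar 242 and 265 TPM.

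Genes around the switch were read as 4 lists of receptors, adaptors, control enzymes and caspases, chosen with earlier results known. Of 9 receptors and ligands, 8 were detected, with a median of 15.6 TPM over the 9. Tnf, the ligand that starts the pathway in many settings, was the highest by mean at 101 ± 67 TPM (177, 51.6 and 74.2). Without replicate 1 it averaged 62.9 TPM, below the 63.7 TPM of the TNF receptor gene Tnfrsf1b. The TRAIL receptor gene Tnfrsf10b was the lowest detected in the gene table at 0.68 ± 0.19. The read-based table placed it at 8.90 ± 0.82 TPM, beside 8.42 ± 3.17 for Tnfsf10 of the same list, so its level depended on the quantification. All 8 adaptors and sensors were detected, from Eif2ak2, the double-stranded RNA kinase PKR, at 218 ± 41 TPM to Fadd, the adaptor that recruits caspase-8, at 1.85 ± 0.15. Fadd therefore lay below Casp8, Cflar and Ripk1 in each library. Of 16 genes for ubiquitin and kinase control of RIPK1, 16 were detected, from Ikbke, a kinase that phosphorylates RIPK1, at 1109 ± 89 TPM to Spata2, the bridge between CYLD and the linear ubiquitin ligase complex, at 9.22 ± 1.52. All 9 genes of the caspase cascade and its inhibitors were detected, from the apoptosome gene Apaf1 at 67.9 ± 6.7 TPM to the effector caspase gene Casp6 at 3.83 ± 0.30. Replicate 1 was the highest for 7 of 8, 7 of 8, 12 of 16 and 6 of 9 detected genes of these lists, beside the 36.3% of all detected protein-coding genes, and their median deviations were 0.22, 0.22, 0.16 and 0.21.

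**Figure D5:**
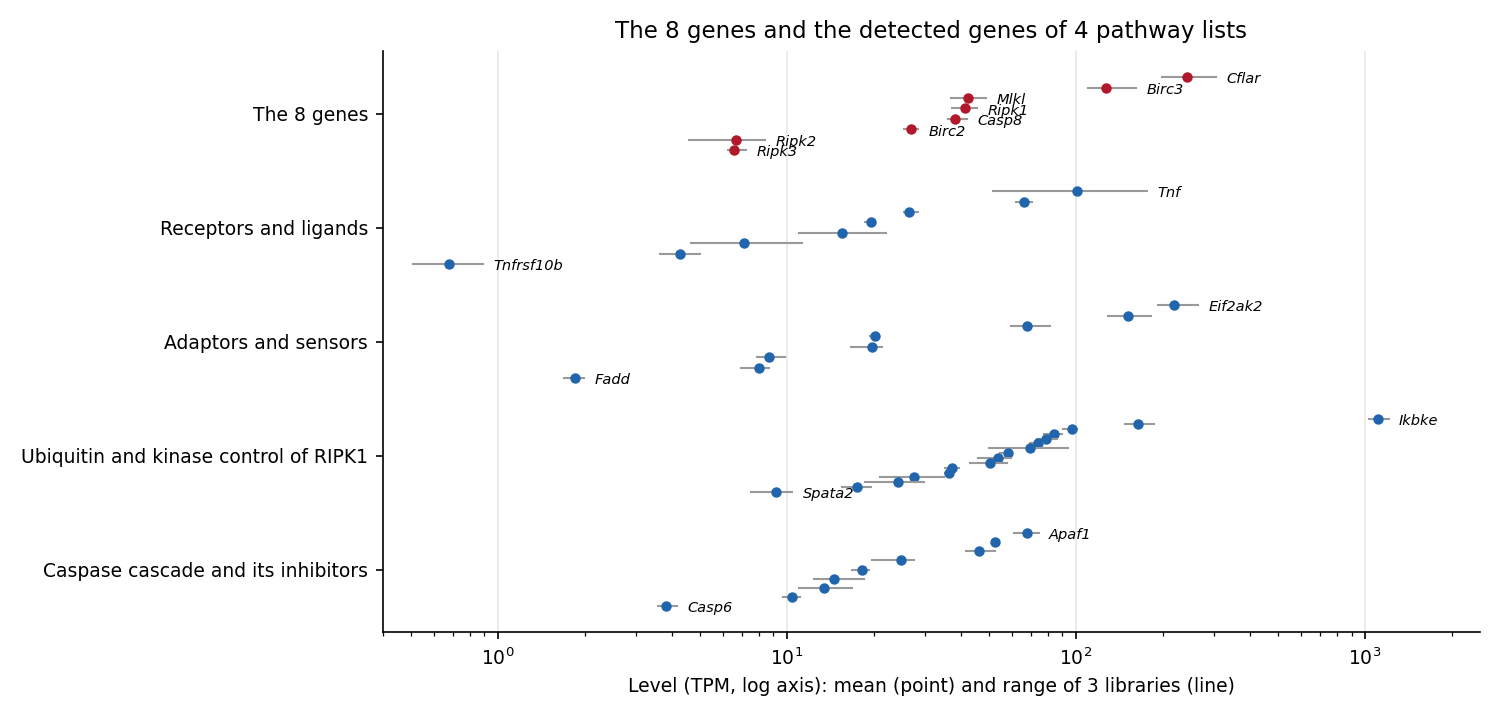
Mean level (points) and range over 3 libraries (lines) in TPM on a log axis, for the 8 genes and the detected genes of 4 pathway lists, with the highest and lowest of each list named. By mean, Cflar at 242 TPM lay above each receptor, adaptor and caspase gene shown, and Ikbke at 1109 TPM was the highest gene in the plot. The range of the adaptor list's Eif2ak2, 193 to 265 TPM, overlapped that of Cflar. In the read-based table, not plotted here, Eif2ak2 averaged 277 TPM and Cflar 265 TPM.

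The detected protein-coding genes outside these lists with the values most like those of Cflar over 3 libraries were Ddx58 (chromosome 4) and Cd274 (chromosome 19). Ddx58, which encodes the RNA sensor RIG-I, was at 308, 211 and 220 TPM, a distance of 0.093 in log2(TPM + 1). Cd274, which encodes the checkpoint ligand PD-L1, was at 302, 185 and 219 TPM, a distance of 0.0998. Those nearest to Ripk3 were Mfap1b and Dennd2a, at distances of 0.0405 and 0.0534. With only 3 libraries such a likeness rests on the level and few contrasts between libraries.

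Reads of neighbouring genes could affect 3 of the 8. Ripk1 exons overlap those of Serpinb6a on the opposite strand by 241 bp and those of the pseudogene Gm17084 on the same strand by 511 bp, out of 8344 bp. Serpinb6a held 990 expected counts on average and Gm17084 held 10.1. Casp8 contains the transcribed feature Gm37760 on the same strand, with no shared exon and a mean of 1523 expected counts, more than the 1179 of Casp8 itself. Within Mlkl, outside its exons, lies the pseudogene Gm45712 on the opposite strand, with a mean of 18 counts.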

How the data were processed

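Chromatin-fraction RNA was sequenced in 3 libraries, whose labels give fragment sizes from 250 to 400. The authors estimated the expected counts and the TPM of the gene table and of one transcript table from transcriptome alignments, per the file headers and the notes deposited with them (mm10, GENCODE M21). The deposited read-based table holds the authors' estimated counts and TPM for transcripts, made from reads with no such alignment named. The gene table also gives the posterior SD of each count, another value estimated by the authors. The authors' tools, their versions and any use of strand are not given in the sources used here. Where genes overlap on opposite strands, their reads may therefore be mixed.

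The members and lists were chosen with earlier results of these data known. Unless another table is named, TPM values come from the gene table. Levels used log2(TPM + 1). Of the counts, 1.24, 0.482 and 0.228% lay in 26345 features with no annotated gene, which were left out. Features shorter than 200 nt held 35.5 to 43.3% of TPM, which lowers all other TPM values. Expected counts were rounded for edgeR 4.0.16 (TMM scaling, a model with an intercept) and for DESeq2 1.42.0, run in R 4.3.3. The edgeR coefficient of variation and the share of genes highest in replicate 1 were tested on simulated counts. The DESeq2 steps were not. Other steps used Python 3.11.15 and BLAST 2.17.0. With 1 group there was no test between conditions. Named were all 8 genes, their transcripts with at least 10% of TPM in either table, the highest and lowest detected gene of each pathway list, and the 2 genes most like the highest and the lowest member. Positions within genes count from 0 at the annotated start of the gene, and promoter positions from 1 at the RefSeq start. Alternatives covered the quantification, unit, scaling, pseudocount, count minimum, dispersion and each replicate.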

Additional observations from a re-analysis of the deposited data

How the results depend on the processing

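The 5 differences between paired genes kept their sign under each alternative run, and no result on the median of the 8 genes changed sign. In the read-based table the differences were 3.04 for Birc3 minus Birc2, 2.25 for Cflar minus Casp8, 2.93 for Ripk1 minus Ripk3 and -3.13 for Ripk3 minus Mlkl, with a median level of 5.73 (log2) in place of 5.34. From protein-coding transcripts alone, chosen after seeing the data, they were 1.51 for Birc3 minus Birc2, 1.51 for Cflar minus Casp8, 1.65 for Ripk1 minus Ripk3, -2.62 for Ripk3 minus Mlkl and -1.52 for Ripk2 minus Ripk1, with a median level of 4.83. The same choice in the read-based table gave 1.09 for Cflar minus Casp8, 2.11 for Ripk1 minus Ripk3, -3.04 for Ripk3 minus Mlkl and -1.98 for Ripk2 minus Ripk1, with a median level of 5.02. Counts not divided by length gave 1.22 for Birc3 minus Birc2, 3.27 for Cflar minus Casp8 and 3.45 for Ripk1 minus Ripk3. A pseudocount of 0.1 gave 2.64 for Ripk1 minus Ripk3 and -2.66 for Ripk3 minus Mlkl.

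TPM rescaled without short features and ribosomal genes raised the median level to 6.23 and the median deviation of replicate 1 to 0.34, and it moved the median deviation of all detected protein-coding genes from -0.000107 to 0.0693. The percent of detected protein-coding genes highest in replicate 1 was 46.2% on that scale, 32.3% with TMM, 32.9% with DESeq2 size factors, 35.2% over genes with any count and 38.0% at a mean count of at least 100. The deviation of Ripk3 turned to -0.18 with TMM, -0.21 with DESeq2 size factors, -0.086 in protein-coding transcripts and -0.17 in those of the read-based table, where 5 genes were highest in replicate 1, and the cause was not tested. Leaving out each replicate moved the pair differences to 2.04 to 2.27, 2.50 to 2.71, 2.45 to 2.53, -2.57 to -2.46 and -2.60 to -2.36, in the order of the report. It gave a median level of 5.27 to 5.39 and a median coefficient of variation of 0.098 to 0.166. For the deviation of replicate 1 only replicate 2 or replicate 3 could be left out, and its median was 0.23 to 0.33. The count of 8 genes highest in replicate 1 could not change there, as a gene above both other libraries is above each. For single genes and transcripts, 179 values stayed within a set limit and 69 moved beyond it without a change of sign. The limit was the spread between libraries, except for coefficients of variation, where it was a fixed ratio to the main value. Leaving out a replicate cannot move a level, share or deviation beyond that spread. Such values are part of the 179 and stayed within the limit by arithmetic. Depth limits Ripk3 most, with 94 to 173 counts and an SD of 26.1 percentage points for its leading isoform.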
